A study of Mus musculus with 6 samples.

Results

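The 44 genes described here encode the proteins that license replication origins, unwind and copy DNA at the fork, supply its nucleotides and restore its methylation. They were taken as a list of gene symbols and divided by role into 7 groups, and each was matched to probes through the RefSeq transcript that a probe names. The 44 genes had 49 of the 39429 probes on the array, and 43 of them were among the 15535 genes that could be tested. All 43 were well above background on all 6 arrays. The gene left out was Mcm2, whose only spot was marked as an outlier on 1 array.

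RNA came from MC3T3-E1, a mouse pre-osteoblast cell line that can lay down mineralised matrix, seeded on metal scaffolds in 24-well plates and kept there for 3 days. The FeMnSi group (n = 3) grew on the original scaffold, named for iron, manganese and silicon. The De-HA group (n = 3) grew on a scaffold that was first dealloyed and then coated with bioactive material. Both groups carried the same line and time, with no other agent named, and each sample was labelled with Cy3 and read on 1 single-colour Agilent array.

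Whether the replicates came from separate cultures is not in the labels, so the p-values cover the spread between these 6 arrays alone, and that spread may be technical. The array number limits the precision. The file headers give all De-HA arrays and FeMnSi 1 a single scan time and FeMnSi 2 and 3 another, and the array positions start anew in the latter set. These sets of arrays are called slide 1 and slide 2 here; no slide identifier was used. The value within slide 1, the De-HA mean minus FeMnSi 1, is therefore given beside the pooled one; slide 2 holds no De-HA array and gives none. Between 63.5% and 74.4% of probes were well above background on an array, and no spot was saturated.

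Replication is prepared in G1, when the origin recognition complex, with Cdc6 and Cdt1, loads rings of MCM proteins onto DNA, a step called licensing. In S phase Cdc45 and the GINS complex join the MCM ring to form the active helicase, and polymerase alpha with primase starts each new strand. Polymerases delta and epsilon then extend the strands on a sliding clamp. Many of these genes are known targets of E2F transcription factors and are transcribed as cells enter S phase, so their transcripts mark dividing cells. Osteoblast precursors divide before they mature.

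Replication genes were lower on the De-HA scaffold. Of the 43 tested, 30 fell at an adjusted p of 0.05 (limma with Benjamini-Hochberg adjustment over all genes) and 0 rose, where 4.29% of all genes fell and 6.46% rose. The 30 falls ran from 1.30-fold to 2.33-fold with a median of 1.64-fold, and 6 of them, in Orc1, Cdc6, Mcm5, Mcm7, Gins1 and Uhrf1, reached 2-fold. Another 11 genes had lower means that did not pass, and Gins3 and Tyms had higher means that did not pass. At an unadjusted p under 0.05, 39 were lower and 0 higher, against 10.7% and 22.8% of all genes. The median log2 fold change, De-HA minus FeMnSi, was -0.62 over the 43 genes (-0.58 within slide 1), against 0.10 over all genes (0.051 within slide 1). In RNA from a whole culture, fewer cells of a type and less RNA per cell cannot be told apart.

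The 2 groups of arrays did not overlap for 40 of the 43 genes, with De-HA lower for 39 and higher for Gins3 alone. Over all genes, 13.7% were lower and 25.4% higher without overlap. After each gene was centred on its own mean, the median over the 43 genes was -0.37, -0.26 and -0.30 on De-HA 1, 2 and 3. It was 0.28, 0.38 and 0.27 on FeMnSi 1, 2 and 3. Each FeMnSi array thus lay above each De-HA array. De-HA 1 was the lowest of the 6 arrays for 30 genes, and FeMnSi 2 the highest for 28.

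**Figure D1:**
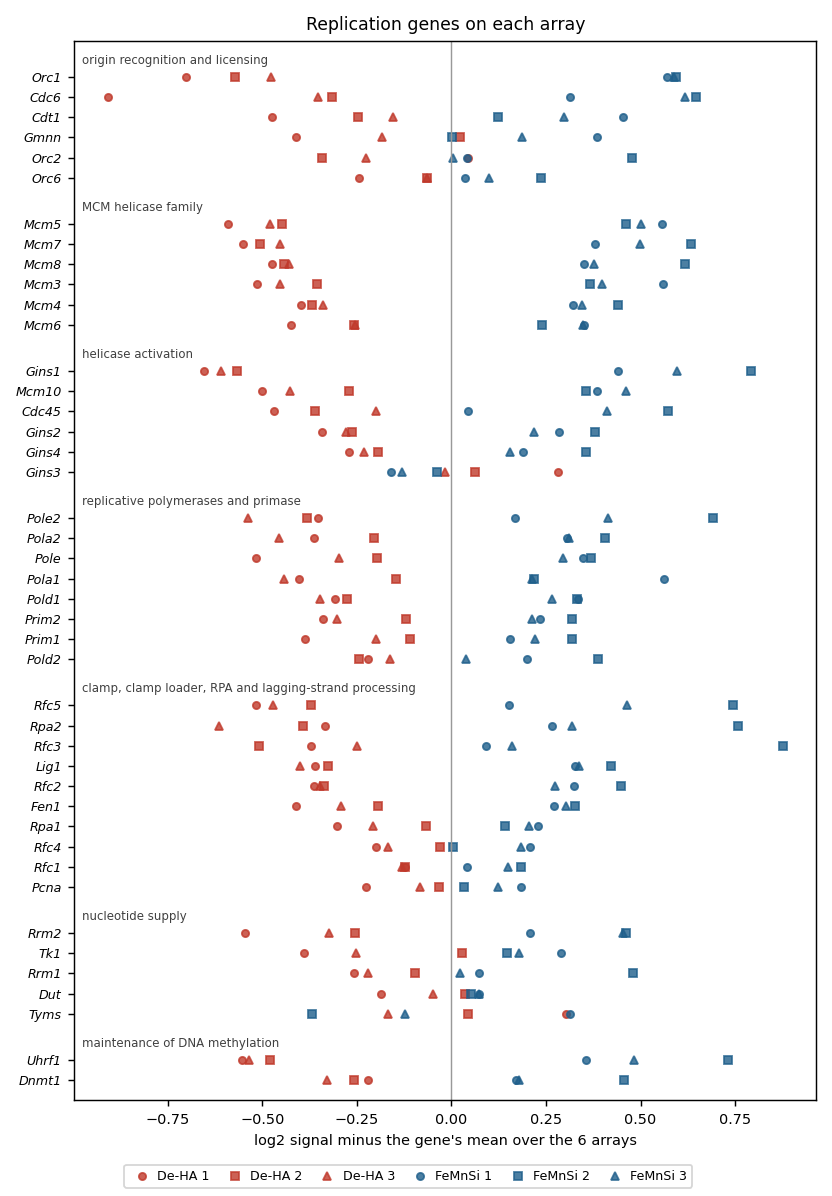
Log2 signal of each of the 43 tested genes on each array, minus the gene's mean over the 6 arrays, by role; each point is 1 array, and colour and shape give the scaffold and replicate. De-HA arrays lie left of FeMnSi arrays without overlap for 39 genes, while Gins3 lies the other way and Orc2, Gmnn and Tyms overlap.

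With the slide as a block, 6 of the 30 passed, namely Orc1, Mcm3, Mcm5, Mcm7, Gins1 and Uhrf1, where 0.502% of all genes fell. In that fit the estimate is the value within slide 1, and it was below 0 for 42 of the 43 genes. Each array mattered to the count, which was 19, 16 and 10 when De-HA 1, 2 or 3 was left out and 33, 19 and 11 when FeMnSi 1, 2 or 3 was. Over all 15535 genes, 247, 194 and 112 fell without De-HA 1, 2 or 3, and 1382, 236 and 94 without FeMnSi 1, 2 or 3. Orc1, Mcm3, Mcm4, Mcm5, Mcm7, Mcm8, Gins1, Mcm10, Lig1 and Uhrf1 passed in each of these 6 fits. Cdt1, Cdc45, Gins4, Pola1, Prim1, Prim2, Rpa1 and Dnmt1 passed in 1 alone, the fit without FeMnSi 1.

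The split of calls between higher and lower depends on the scaling between arrays. Of all genes past the threshold, 60.1% were higher in De-HA here, against 43.8% after quantile normalization, 37.3% with median scaling, 48.2% with the percentile over detected probes, 45.2% after normexp background correction followed by quantile normalization and 41.3% in the authors' matrix. Some of these settings shifted the median of all genes by over 0.1. Relative to that median, the replication genes had a median of -0.73 here, -0.72 after quantile normalization, -0.73 with median scaling, -0.53 after normexp with quantile normalization and -0.73 in the authors' matrix. In each of these, 0 replication genes rose. After quantile normalization 33 fell, where 5.66% of all genes fell and 4.41% rose, and with median scaling 31 fell, where 5% fell and 2.98% rose.

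**Figure D2:**
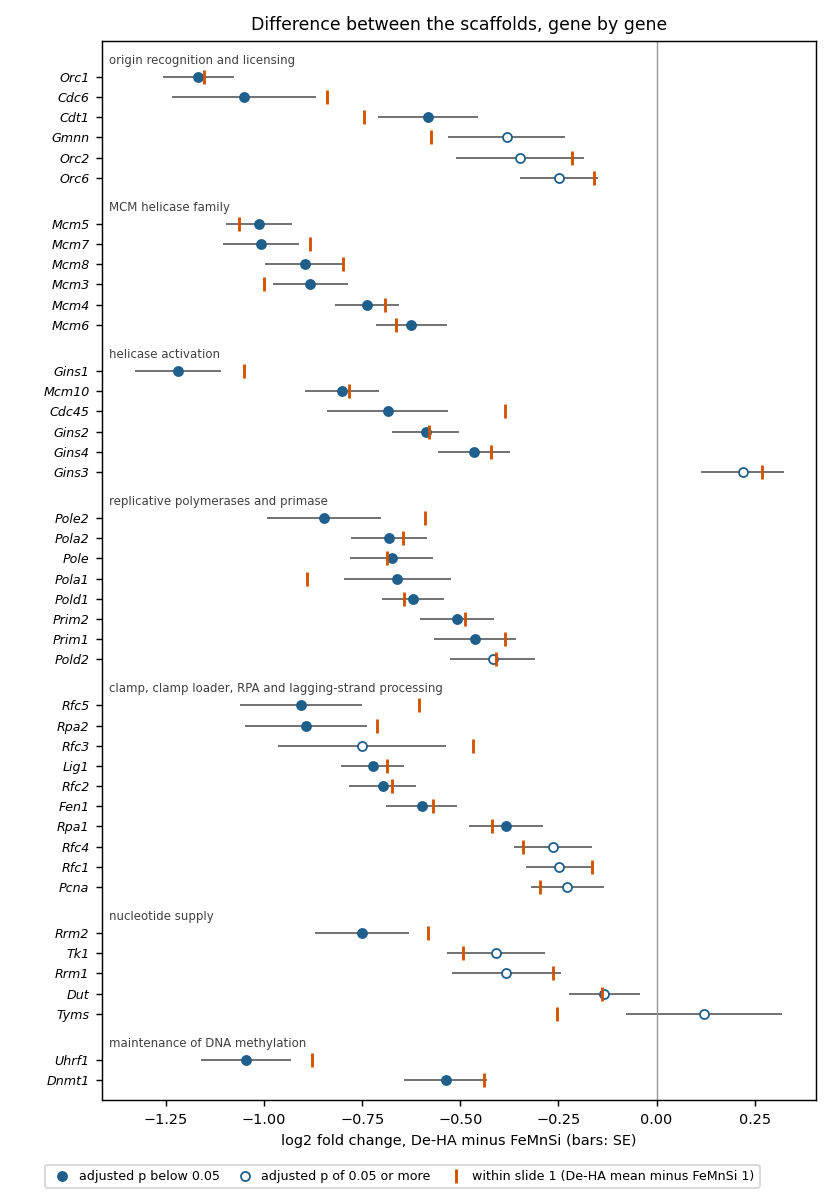
Log2 fold change, De-HA minus FeMnSi, of the 43 tested genes, with bars for the SE of the fit over 3 arrays a group; filled points passed an adjusted p of 0.05 and vertical ticks give the value within slide 1. All 30 filled points lie left of 0, and the tick lies left of 0 for 42 genes.

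Promoter sequence was set beside these values, since E2F factors are known to act at many replication genes. RefSeq windows (GRCm38.p6) from 250 bases before to 50 after the start of a gene were found for 36 of the 44 genes, 45 windows in all. The windows were searched on both strands for the E2F 8-mers TTTCCCGC, TTTCGCGC, TTTGCCGC and TTTGGCGC, which can overlap one another. They were held by 16 of the 36 genes, 44.4%, against 2.61% of all 27025 genes with a window and 4.04% of the tested ones. By window the share was 35.6% against 2.27% of all 32851 windows. Dnmt1 and Uhrf1 each had a further window without an 8-mer, and their 8-mers lay at a start within the annotated gene. A match describes letters in a window; it is neither a bound site nor a cause.

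Stretches of 100 bases lying wholly before a start and outside annotated genes are shown for 4 of the 16 genes, 5′ to 3′ on the gene's strand, with E2F 8-mers in capitals. Mcm5 and Mcm6 are helicase genes that fell, Rfc3 missed the threshold, and Gins3 had a higher mean.
Mcm5, chr8:75109288-75109387, plus strand: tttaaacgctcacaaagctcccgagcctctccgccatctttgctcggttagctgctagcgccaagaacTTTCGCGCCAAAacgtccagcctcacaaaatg
Mcm6, chr1:128359725-128359824, minus strand: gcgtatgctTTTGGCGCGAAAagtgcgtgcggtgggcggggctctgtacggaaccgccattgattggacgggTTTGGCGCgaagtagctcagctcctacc
Rfc3, chr5:151651209-151651308, minus strand: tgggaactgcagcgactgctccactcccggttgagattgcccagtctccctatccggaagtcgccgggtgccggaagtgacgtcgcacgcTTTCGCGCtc
Gins3, chr8:95633446-95633545, plus strand: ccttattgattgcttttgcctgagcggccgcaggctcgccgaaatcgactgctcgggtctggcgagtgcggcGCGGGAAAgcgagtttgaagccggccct
In Mcm5 the capitals are 2 overlapping 8-mers that face opposite ways. Mcm6 has such a pair too and 1 more 8-mer, while Rfc3 and Gins3 have 1 each in the stretch. Rfc3 and Gins3 are the 2 of the 16 genes with an 8-mer that did not pass, Rfc3 with a lower mean (-0.75).

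Of the genes with an 8-mer, 14 of 16 fell and the median log2 fold change was -0.80. Of those with a window but no 8-mer, 9 of 19 tested fell and the median was -0.41. Over all tested genes 4.29% fell. The share among all tested genes with an 8-mer was not counted, and this is a description with no test. Among MCM genes 5 of 6 with a window held an 8-mer, and among nucleotide supply genes 0 of 5. Other promoter motifs were CCAAT, in 62.2% of the replication windows against 37.4% of all windows, and the GC box GGGCGG, in 66.7% against 35.7% (55.2% among tested genes). The motif TTTGAA, known from genes of G2 and mitosis, was in 13.3% against 17.9% of all windows and 13.3% among tested genes. A list of 18 G2 and mitosis genes, 15 of them with a window, gave other shares, with TTTGAA in 73.3%, CCAAT in 93.3% and an E2F 8-mer in 6.67%.

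Values on single arrays are given below as multiples of the array's 75th percentile signal, in the order of replicates 1, 2 and 3. They compare arrays for 1 probe and not genes with each other. Among genes of origin recognition and licensing, 3 of 6 fell and the others did not pass. Orc1, the largest subunit of the origin recognition complex, had signals of 0.0553, 0.0604 and 0.0646 in De-HA and 0.133, 0.136 and 0.135 in FeMnSi. The FeMnSi arrays were nearly level with each other, and the fall was 2.25-fold (-1.17 ± 0.09 SE as a log2 difference, adjusted p = 0.00199, with -1.15 within slide 1). After normexp with quantile normalization it was -0.52.

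Cdc6 encodes the ATPase that joins the origin complex to load MCM rings. Its signals were 0.155, 0.234 and 0.228 in De-HA and 0.362, 0.456 and 0.447 in FeMnSi. De-HA 1 was lowest, no De-HA array reached a FeMnSi array, and the fall was 2.07-fold (-1.05 ± 0.18 SE, adjusted p = 0.0212, -0.84 within slide 1). Its other probe gave -1.62. Cdt1, the second loading factor, had 5.53, 6.46 and 6.90 in De-HA and 10.5, 8.36 and 9.44 in FeMnSi, a fall of 1.50-fold (-0.58 ± 0.13 SE, adjusted p = 0.0369, -0.74 within slide 1). Leaving out 1 array at a time took the adjusted p of Cdc6 to between 0.0151 and 0.0823, and that of Cdt1 to between 0.0341 and 0.119.

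Gmnn, encoding geminin, which holds Cdt1 in check after replication has begun, gave -0.38 (adjusted p = 0.127, -0.58 within slide 1) with arrays that overlapped. The origin subunit genes Orc2 (-0.35, adjusted p = 0.178, -0.21 within slide 1) and Orc6 (-0.25, adjusted p = 0.136, -0.16 within slide 1) did not pass. The licensing genes thus included falls of over 2-fold and lower means that did not pass. Of the latter, Orc6 had groups that did not overlap.

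All 6 tested genes of the MCM family fell, with a median of -0.89. The products of Mcm2 to Mcm7 form the ring of the replicative helicase, and Mcm8 encodes a related helicase known from recombination repair. Mcm5 had 0.504, 0.557 and 0.545 in De-HA and 1.12, 1.05 and 1.08 in FeMnSi. These arrays were close within each group, and the fall was 2.02-fold (-1.01 ± 0.08 SE, adjusted p = 0.00242, -1.06 within slide 1).

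Mcm7 had 1.46, 1.50 and 1.56 in De-HA and 2.78, 3.31 and 3.02 in FeMnSi, a fall of 2.01-fold (-1.01 ± 0.10 SE, adjusted p = 0.00390, -0.88 within slide 1). Mcm3 had 5.92, 6.60 and 6.17 in De-HA and 12.5, 10.9 and 11.1 in FeMnSi (-0.88 ± 0.09 SE, adjusted p = 0.00660, -1.0 within slide 1). FeMnSi 2 was the highest array for Mcm7 and FeMnSi 1 for Mcm3, so no single FeMnSi array led both. Mcm4 had 5.75, 5.86 and 5.98 in De-HA and 9.46, 10.3 and 9.62 in FeMnSi (-0.74 ± 0.08 SE, adjusted p = 0.00711, -0.69 within slide 1).

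Mcm6 fell by 0.62 on the log2 scale (adjusted p = 0.0130, -0.66 within slide 1) and Mcm8 by 0.90 (adjusted p = 0.00730, -0.80 within slide 1), where the other probe gave -0.81. Mcm6 passed in 3 of the 6 fits without 1 array, with adjusted p-values from 0.0150 to 0.0659, while Mcm3, Mcm4, Mcm5, Mcm7 and Mcm8 passed in all 6. Mcm2 could be compared only with outlier spots kept. It then had 0.891, 1.22 and 0.775 in De-HA, the last on the marked spot, and 1.86, 2.65 and 1.88 in FeMnSi. That is 2.22-fold lower (-1.15 ± 0.21 SE, adjusted p = 0.0254), and the series matrix, which holds the spot too, gave -1.20 (adjusted p = 0.0226).

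Of 6 helicase activation genes 5 fell, with a median of -0.64. Gins1, a subunit of the GINS complex, fell as well. Its signals were 0.306, 0.325 and 0.315 in De-HA and 0.653, 0.833 and 0.728 in FeMnSi, 2.33-fold lower (-1.22 ± 0.11 SE, adjusted p = 0.00316, -1.05 within slide 1). The De-HA arrays lay close together and FeMnSi 2 was the highest. Mcm10, a fork protein needed to start unwinding, had 1.39, 1.63 and 1.46 in De-HA and 2.57, 2.52 and 2.71 in FeMnSi (-0.80 ± 0.09 SE, adjusted p = 0.00801, -0.78 within slide 1).

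Gins2 had 0.223, 0.236 and 0.233 in De-HA and 0.344, 0.368 and 0.329 in FeMnSi (-0.59 ± 0.09 SE, adjusted p = 0.0129, -0.58 within slide 1). Gins4 had 1.66, 1.75 and 1.71 in De-HA and 2.28, 2.56 and 2.23 in FeMnSi (-0.47 ± 0.09 SE, adjusted p = 0.0281, -0.42 within slide 1). Both kept their groups apart, but without 1 array the adjusted p ran from 0.0139 to 0.0656 for Gins2 and from 0.0222 to 0.107 for Gins4. Cdc45, whose product ties GINS to the MCM ring, fell by 0.69 (adjusted p = 0.0388, -0.39 within slide 1, -0.27 after normexp with quantile normalization, and 0.0111 to 0.126 without 1 array).

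The remaining subunit gene of the 4-part GINS complex, Gins3, did not follow. It had 16.2, 13.9 and 13.1 in De-HA and 11.9, 13.0 and 12.2 in FeMnSi, so each De-HA array was above each FeMnSi array, the lowest by little. The difference of 0.22 ± 0.11 SE did not pass (adjusted p = 0.186, 0.27 within slide 1), and after quantile normalization it was 0.052.

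Replicative polymerase and primase genes fell in 7 of 8 cases, with a median of -0.64. Pold1, the catalytic subunit of polymerase delta, had 0.447, 0.457 and 0.435 in De-HA and 0.698, 0.696 and 0.666 in FeMnSi (1.54-fold, -0.62 ± 0.08 SE, adjusted p = 0.00920, -0.64 within slide 1). Pola2, the accessory subunit of polymerase alpha, had 0.0906, 0.101 and 0.0849 in De-HA and 0.144, 0.154 and 0.145 in FeMnSi (-0.68 ± 0.10 SE, adjusted p = 0.0121, -0.65 within slide 1, -0.34 after normexp with quantile normalization). Both genes had FeMnSi arrays that differed little from each other.

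Pole encodes the catalytic subunit of polymerase epsilon, which copies the leading strand. Its brighter probe had 1.07, 1.34 and 1.25 in De-HA and 1.95, 1.98 and 1.88 in FeMnSi (-0.67 ± 0.11 SE, adjusted p = 0.0155, -0.69 within slide 1). Its other probe gave 0.064, and with the mean of both probes Pole did not pass. Pole2, the second epsilon subunit, had 0.439, 0.430 and 0.386 in De-HA and 0.629, 0.905 and 0.746 in FeMnSi (-0.85 ± 0.14 SE, adjusted p = 0.0199, -0.59 within slide 1). FeMnSi 2 was highest and FeMnSi 1 lowest of its group.

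Pola1, the catalytic subunit of polymerase alpha, fell by 0.66 (adjusted p = 0.0318, -0.89 within slide 1). The primase genes Prim1 and Prim2, whose products lay down RNA primers, fell by 0.46 and 0.51 (adjusted p = 0.0394 and 0.0252, -0.39 and -0.49 within slide 1). Pold2, an accessory subunit of polymerase delta, gave -0.42 and missed the threshold (adjusted p = 0.0562, -0.41 within slide 1), though it passed after quantile normalization and with median scaling. None of these 8 genes passed in all 6 fits without 1 array; the adjusted p of Pold1 ran from 0.0113 to 0.0582, and that of Pole2 from 0.00930 to 0.0858. For Pola2 the range was 0.0130 to 0.0631 and for Pole 0.0173 to 0.0689.

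Among 10 genes of the clamp, clamp loader, RPA and lagging-strand processing, 6 fell, with a median of -0.65. Lig1, the ligase that joins Okazaki fragments, had 1.32, 1.35 and 1.28 in De-HA and 2.12, 2.26 and 2.13 in FeMnSi (1.65-fold, -0.72 ± 0.08 SE, adjusted p = 0.00730, -0.69 within slide 1). Fen1, the nuclease that trims the flap before ligation, had 6.11, 7.11 and 6.64 in De-HA and 9.80, 10.2 and 10.0 in FeMnSi (-0.60 ± 0.09 SE, adjusted p = 0.0138, -0.57 within slide 1). For both genes each De-HA array was below each FeMnSi array.

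The RFC complex loads the clamp onto DNA, and its 5 subunit genes were not alike. Rfc2 had 0.287, 0.292 and 0.291 in De-HA and 0.463, 0.504 and 0.446 in FeMnSi (-0.70 ± 0.09 SE, adjusted p = 0.00846, -0.67 within slide 1). Rfc5 had 1.21, 1.33 and 1.24 in De-HA and 1.92, 2.89 and 2.38 in FeMnSi (-0.91 ± 0.15 SE, adjusted p = 0.0198, -0.60 within slide 1). For Rfc5 FeMnSi 1 lay well below FeMnSi 2. Rfc3 gave -0.75, with a wide error (± 0.21 SE, adjusted p = 0.0675, -0.47 within slide 1). Rfc1, the large subunit, gave -0.25 (adjusted p = 0.0925, -0.17 within slide 1), and Rfc4 gave -0.26 (adjusted p = 0.118, -0.34 within slide 1) by its brighter probe and -0.92 by the other. Without FeMnSi 1, Rfc3 and Rfc1 passed as well. Fen1, Rfc2 and Rfc5 passed in 4, 5 and 2 of the 6 fits without 1 array, with adjusted p-values of up to 0.0700, 0.0518 and 0.0827.

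RPA coats single-stranded DNA at the fork. Its subunit genes Rpa1 and Rpa2 fell by 0.38 and 0.89 (adjusted p = 0.0480 and 0.0210, -0.42 and -0.71 within slide 1). Neither passed without De-HA 3, where Lig1 alone of the 10 genes passed, or with the slide as a block, where 0 did. Rpa1 did not pass with median scaling. Pcna, the sliding clamp itself and a standard marker of proliferation, had 35.9, 41.0 and 39.6 in De-HA and 47.7, 43.0 and 45.7 in FeMnSi. The groups did not overlap, but the difference of -0.23 ± 0.09 SE did not pass (adjusted p = 0.142, -0.30 within slide 1). It passed after quantile normalization, where it was -0.52, after normexp with quantile normalization (-0.54) and in the series matrix.

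Nucleotide supply genes were the group with the fewest falls, 1 of 5, and a median of -0.38. Rrm2, the regulated subunit of ribonucleotide reductase, which makes deoxyribonucleotides, had 6.51, 7.97 and 7.59 in De-HA and 11, 13.1 and 13.0 in FeMnSi. It was 1.68-fold lower (-0.75 ± 0.12 SE, adjusted p = 0.0165, -0.58 within slide 1, and 0.0108 to 0.0736 without 1 array). Rrm1, the partner subunit, gave -0.38 (adjusted p = 0.112, -0.26 within slide 1). The thymidine kinase gene Tk1 gave -0.41 (adjusted p = 0.0789, -0.49 within slide 1), and it passed after quantile normalization.

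Dut, whose product keeps uracil out of DNA, gave -0.13 (adjusted p = 0.322, -0.14 within slide 1), or -0.31 after quantile normalization. Tyms, the thymidylate synthase gene, had 1.03, 0.864 and 0.747 in De-HA and 1.04, 0.649 and 0.769 in FeMnSi. Its groups overlapped fully, with replicate 1 highest in both, and the difference of 0.12 ± 0.20 SE did not pass (adjusted p = 0.690). Within slide 1 it was -0.25, the reverse sign.

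Both genes that maintain DNA methylation behind the fork fell. Uhrf1 encodes the protein that recognises newly copied, half-methylated DNA. Its signals were 4.11, 4.32 and 4.16 in De-HA and 7.72, 10.0 and 8.43 in FeMnSi, 2.07-fold lower (-1.05 ± 0.11 SE, adjusted p = 0.00701, -0.88 within slide 1), and the other probe gave -0.76. Dnmt1, the maintenance methyltransferase that Uhrf1 recruits, had 0.291, 0.283 and 0.270 in De-HA and 0.381, 0.464 and 0.383 in FeMnSi (-0.54 ± 0.11 SE, adjusted p = 0.0290, -0.44 within slide 1). For both, FeMnSi 2 was the highest array. Uhrf1 passed in all 6 fits without 1 array, while Dnmt1 had adjusted p-values from 0.0199 to 0.114.

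Other genes of the pathway were counted by list, where 4.29% of all tested genes fell and 6.46% rose. Of 10 remaining subunits of the same machines, such as Orc3, Orc4, Mcm9, Pold3 and Rpa3, 0 fell and 0 rose (limma, with 1 lower and 1 higher at an unadjusted p under 0.05), and the median was -0.12. The smallest p was that of Pole3 (-0.47, adjusted p = 0.0562, -0.58 within slide 1), which encodes a histone-fold subunit of polymerase epsilon. E2F 8-mers were held by 4 of these 10 genes. The list had 1 fall with median scaling, 1 with the percentile over detected probes and 2 after normexp with quantile normalization. Over all 15535 genes 777, 755 and 1037 fell in those settings. The list also had 1 fall with an intensity trend in eBayes, where 911 of all genes fell. With only probes well above background on all 6 arrays, 1 of 9 fell, against 732 of 13813 genes. After quantile normalization alone and in the series matrix 0 of the list fell. The part of complex membership or of an 8-mer in these differences was not tested.

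Origin firing and fork factors included 9 falls among 20 genes, where 4.29% of all genes fell, and a median of -0.44. Topbp1, which helps load Cdc45, fell by 1.22 (adjusted p = 0.00838, -0.99 within slide 1), and Dna2, a nuclease of flap processing, by 1.17 (adjusted p = 0.00657, -1.03 within slide 1, -0.64 after normexp with quantile normalization). Timeless, of the fork protection complex, fell by 1.14 (adjusted p = 0.00145, -1.18 within slide 1), and Dscc1, of the alternative clamp loader, by 1.04 (adjusted p = 0.00895, -0.91 within slide 1). All 4 passed in each of the 6 fits without 1 array, and Timeless also with the slide as a block.

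Chromatin assembly genes had 6 falls among 10, where 4.29% of all genes fell, and a median of -0.49. They were led by Chaf1b (-0.81, adjusted p = 0.0119, -0.68 within slide 1) and the histone chaperone gene Asf1b (-0.92, adjusted p = 0.0139, -0.66 within slide 1). Hells, a chromatin remodeller gene (-0.78, -0.61 within slide 1), and Slbp, which binds the ends of histone mRNAs (-0.57, -0.42 within slide 1), fell as well. Further nucleotide synthesis genes had 6 falls among 17 and a median of -0.30. Those given here are Nme1 (-0.44, -0.42 within slide 1), Dck (-0.84, -0.48 within slide 1) and Dtymk (-0.41, -0.28 within slide 1). Of these 7 genes none passed in all 6 fits without 1 array, and none passed with the slide as a block.

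Genes of entry into S phase had 4 falls among 14, where 4.29% of all genes fell, and a median of -0.35. E2f2, an activating E2F, fell by 1.1 (adjusted p = 0.00528, -1.29 within slide 1), in all 6 fits without 1 array and with the slide as a block. E2f1, the best known activator, fell by 0.50 (adjusted p = 0.0419, -0.68 within slide 1) and E2f8, a repressing E2F, by 0.84 (adjusted p = 0.0159, -0.67 within slide 1). Ccna2, encoding cyclin A, fell by 0.87 (adjusted p = 0.0247, -0.56 within slide 1). Those 3 did not pass in all 6 fits or with the slide as a block. Among 10 genes that brake S phase the median was 0.00, and 1, the retinoblastoma relative Rbl1, fell (-0.36, adjusted p = 0.0497, -0.31 within slide 1, lost with median scaling). With the slide or the replicate number as a block, or with no filter on dim probes, 0 of this list fell. Among the fits without 1 array, the list had a fall only in the fit without FeMnSi 1.

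The falls were not limited to S phase genes. Of 18 genes of G2 and mitosis, 10 fell, with a median of -0.52. Kif20a and Kif11, mitotic kinesin genes, fell by 0.75 and 0.73 (-0.62 and -0.63 within slide 1), Ccnb2, encoding cyclin B2, by 0.70 (-0.58), and Top2a, encoding a topoisomerase, by 0.67 (-0.79). Over all genes 4.29% fell. Of 14 housekeeping genes 2 fell, Gusb (-0.47, -0.60 within slide 1) and Pgk1 (-0.62, -0.45 within slide 1), and the median was -0.015. None of these 6 genes passed in all 6 fits without 1 array or with the slide as a block.

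**Figure D3:**
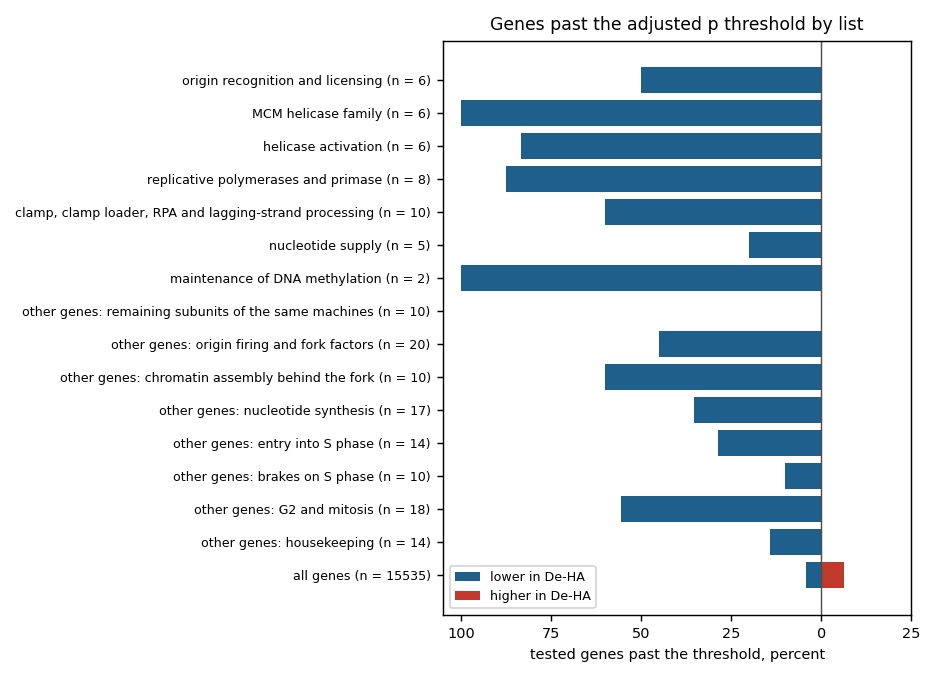
Percent of the tested genes of each list that passed an adjusted p of 0.05, lower in De-HA to the left of 0 and higher to the right, with the number tested in brackets. All bars of the lists point left, the remaining subunits have none, and over all genes 4.29% were lower and 6.46% higher.

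The line's labelled type was checked against markers. All 11 osteoblast markers were well above background on every array, and their summed level ran from 297 to 341 in De-HA and from 235 to 282 in FeMnSi, as multiples of the 75th percentile. Of these 4 were higher in De-HA (Alpl, Ibsp, Runx2 and Sp7) and 1 lower (Spp1), and the median log2 fold change was 0.47, also within slide 1. Over all 15535 genes 1003 were higher with all 6 arrays. In the slide-blocked fit 0 of the markers were higher, against 102 of all genes. Without De-HA 1, 2 or 3 or FeMnSi 1, 2 or 3 the marker count was 1, 1, 0, 7, 1 and 0. The count over all genes, in the same order, was 265, 180, 123, 3229, 288 and 133. Spp1 stayed past the threshold in all of these fits. For 7 fibroblast markers the sums were 168 to 176 and 141 to 166, with 0 past the threshold. Of 8 macrophage markers 6 were tested, with sums of 4.06 to 4.52 and 3.04 to 4.34; Ptprc and Adgre1 were higher and Lyz2 lower. Of 7 endothelial markers Pecam1 and Kdr were tested, 0.802 to 0.886 against 0.628 to 0.649, and Kdr was higher, while Cdh5, Tek, Tie1, Vwf and Emcn had no probe that was kept. Adipocyte markers, 6 of 7 tested, summed to 0.284 to 0.299 and 0.348 to 0.394, with Fabp4 lower and Adipoq not tested. Epithelial markers, 4 of 6 tested, summed to 0.222 to 0.247 and 0.189 to 0.217, with 0 past the threshold. The osteoblast sum is carried by Col1a2, Sparc and Col1a1, of which none passed, and the sums compare arrays within a list and not lists or genes with each other. Of the markers named, Spp1 and Fabp4 alone also passed in the slide-blocked fit. The part of these markers in the differences of replication genes was not tested.

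How far the fall varied with brightness depended on the scaling. Over the 43 genes, Spearman's rho between the mean log2 signal and the log2 fold change was 0.40, against -0.033 over all genes. It was 0.27 after quantile normalization and -0.23, the reverse sign, after normexp with quantile normalization. The 22 brighter genes had a median of -0.46 and the 21 dimmer ones of -0.72, or -0.55 and -0.78 after quantile normalization. After normexp with quantile normalization both medians were -0.53. Pcna, Dut and Gins3, each among the brightest of the 43, are genes that did not pass here. These values are across genes on the same arrays and share their scaling, and genes are not independent replicates.

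**Figure D4:**
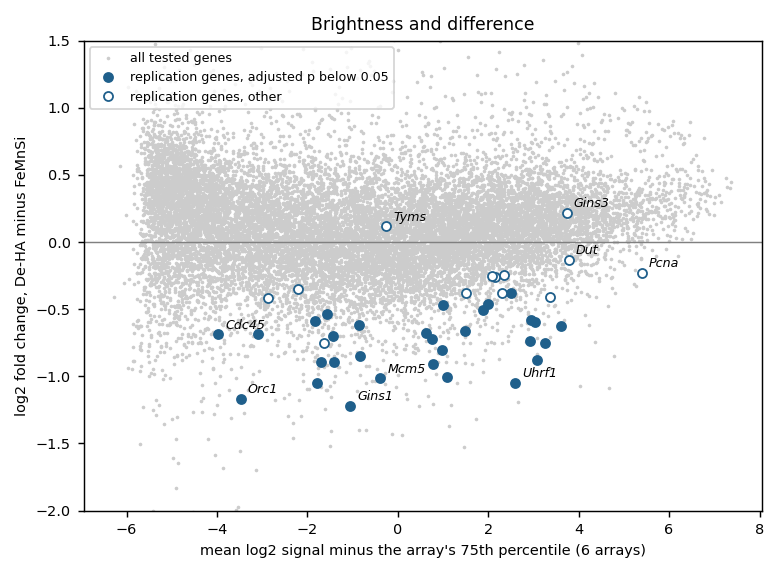
Log2 fold change, De-HA minus FeMnSi, against the mean log2 signal over the 6 arrays minus the array's 75th percentile; grey points are all tested genes, of which 34 lie beyond the plotted range, and blue ones are the 43 replication genes, filled where the adjusted p was below 0.05. All filled points lie below 0, and Pcna, Dut and Gins3 sit near 0 at the bright end with this scaling.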

How the data were processed

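Per the submitters' processing notes, spots were quantified by Agilent Feature Extraction 11.0.1.1. Per the file headers, the deposited signals are linear intensity values per spot, already background-subtracted and spatially detrended array by array, with no scaling across arrays. The deposited series matrix consists of log2 values with a median of 5.77 on every array (r of 0.997 to 1.00 with the log2 scanner signal). How it was made is not stated in the sources used here; it served only as an alternative.

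Of 44397 spots, 1377 controls were left out. Log2 signals were shifted by the array's 75th percentile, spots marked as outliers were dropped, and repeated spots were averaged. A probe was kept if at least 3 of 6 arrays had it well above background, and the probe with the highest mean over the 6 arrays stood for a gene. Names came from the probe's RefSeq transcript (27234 probes with 1 symbol, 12195 without, which were not used). The groups were compared in R 4.3.3 with limma 3.58.1 (lmFit, then eBayes with no trend), with Benjamini-Hochberg adjustment over the 15535 genes and a threshold of 0.05. Files were read with the package data.table (version 1.17.8), and figures drawn with matplotlib 3.10.9 and pandas 2.3.3. The fit was tested on simulated data. Alternatives were other scalings, normexp (offset of 50) followed by quantile normalization, the series matrix, other filters, the slide or replicate number as a block, and leaving out each array. Another was eBayes with an intensity trend. No mean signal column was used for normexp; the median signal stood in for it. Promoter windows come from RefSeq (GRCm38.p6).

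The members and all gene lists were chosen with earlier results of these data known. All 44 genes are named; values on each array are given for at most the 4 smallest p-values past the threshold in each group, and for Mcm2, Gins3, Pcna and Tyms, chosen after their values were seen. Of other lists, the 4 smallest p-values past the threshold are named, or the smallest where none passed. One gene that this rule names is not reported here. Cell type markers past the threshold are named too.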

Additional observations from a re-analysis of the deposited data

How the results depend on the processing

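The 30 falls became 33, 31, 31, 36 and 35 under quantile normalization, median scaling, the percentile over detected probes, normexp with quantile normalization and the series matrix, with medians of -0.72 for quantile normalization, -0.71 for median scaling, -0.53 for normexp with quantile normalization and -0.73 for the series matrix. In the same order, 880, 777, 755, 1037 and 921 of all genes fell, against 666 in the main fit. The series matrix fit covered 15606 genes and 44 replication genes, and Mcm2, not tested in the main fit, is among its 35 falls. All 30 passed after quantile normalization. Without the filter on dim probes 519 of 20590 genes passed in place of 1669 of 15535, among them 18 replication genes. At an unadjusted p under 0.05 (limma), 36 replication genes and 1557 of all genes were lower in that fit. With the filter 39 and 1665 were. The reason for the smaller counts was not tested. With the slide as a block 180 genes and 6 replication genes passed, and the arrays of slide 1 alone gave 36 and 0 (limma, with 33 replication genes and 1159 of 15535 genes lower at an unadjusted p under 0.05); both fits have fewer residual degrees of freedom, and on slide 1, with 1 FeMnSi array, the spread comes from the De-HA arrays alone. Leaving out 1 array gave 227 to 4611 genes (512, 374 and 235 without De-HA 1, 2 and 3; 4611, 524 and 227 without FeMnSi 1, 2 and 3), 10 to 33 replication genes lower, 0 higher and medians of -0.65 to -0.58. The cause of the rise without FeMnSi 1 was not tested. With the replicate number as a replicate block 693 genes passed, 411 higher and 282 lower in De-HA. Among them were 22 replication genes, all lower. Deviations of same-numbered arrays correlated at 0.0070, -0.11 and 0.12, and those of differently numbered arrays at -0.25 to 0.23. These deviations were centred within each group of 3, and slide 2 holds no De-HA array, so they cannot settle whether the numbers are pairs. The numbers were not taken as pairs. Tyms changed sign to -0.25 on slide 1 alone and under the slide block, and leaving out 1 array gave -0.035 (without FeMnSi 2) to 0.31, with -0.0016 without De-HA 1. Over all named genes and alternatives, 951 values kept their direction and side of the threshold, 290 lost the threshold, 28 gained it and 4 reversed. Orc1, Cdc45 and Pola2 are among the dimmer genes whose falls were smaller after normexp with quantile normalization; how far signal over background limits them was not tested.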
